A study of Mus musculus with 5 samples.

Results

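De novo lipogenesis was followed through 10 genes of the 32285 in the matrices: Srebf1, Mlxipl, Acly, Acaca, Fasn, Thrsp, Elovl6, Scd1, Me1 and Pnpla3. Their transcripts were counted as unique molecular identifiers (UMIs) in liver nuclei of wild-type male C57BL6/J mice. The mice received either regular chow (3 libraries) or a MASH diet (2 libraries) in which fat gave 40% and fructose 20% of the energy, with cholesterol at 2%. Either diet was given for 5 months from an age of 10 to 12 weeks, and MASH stands for metabolic dysfunction-associated steatohepatitis. Neither group carried a genetic change, and the number of mice behind a library is not given in the sources used here, so p-values measure the spread between libraries, which may be technical.

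A nucleus counted as a hepatocyte nucleus when it held at least 2000 UMIs and at least 1 UMI of Hnf4a, a transcription factor of hepatocytes. This left 23267 of 57080 barcodes, 17972 from chow and 5295 from MASH livers. Each library was then divided into 3 parts, pericentral, intermediate and periportal, at the tertiles of a zone score, which weighed pericentral Glul, Oat and Slc1a2 against periportal Cyp2f2, Hal and Sds. The UMIs of each gene were summed over the pericentral and over the periportal nuclei of each library. None of the 10 genes entered the score or the gate. Tied scores left the parts unequal, most so in MASH. From pericentral to periportal, they held 1156, 633 and 895 nuclei in MASH replicate 1 and 1481, 259 and 871 in MASH replicate 2. The parts held 1574, 1240 and 1408 nuclei in chow replicate 1, and 2391, 2105 and 2248 in chow replicate 2. Chow replicate 3 was split almost evenly, at 2336, 2334 and 2336.

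Between 48.9% and 63.5% of barcodes passed the gate in the chow libraries, against 20.7% and 22.6% in the MASH libraries, and median depth after the gate ran from 3872 to 5475 UMIs. Pairs of libraries shared between 23 and 48 barcodes. Of 7 pericentral markers that the score did not use, 7 were higher in the pericentral nuclei of every library. Of 7 periportal ones, 7 were higher in the periportal nuclei of 3 libraries and 6 in chow replicates 2 and 3, where Ass1 was the exception. The median pericentral to periportal log2 ratio of the periportal check markers was -0.58, -0.51 and -0.62 in the chow libraries and -1.39 and -1.25 in those from MASH. For the pericentral check markers it stood at 2.99, 1.81 and 1.89 in the chow libraries, against 2.01 and 1.33 in MASH, so the zones were not separated alike in the diets. Nuclei without a UMI of any of the 6 score markers tied at one score and fell among the pericentral nuclei. They were 13.3% to 23.2% of that zone in chow and 33.1% and 41.7% in MASH. The 4 zone by diet calls described below were also made without these nuclei. UMIs of other cell types were commoner in MASH, where 42.4% and 51.4% of gated nuclei held at least 2 UMIs of the 25 markers used, against 10.3% to 20.7% in chow.

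De novo lipogenesis turns carbohydrate carbon into fatty acids in the hepatocyte cytosol. Citrate that leaves mitochondria is split to acetyl-CoA, carboxylated to malonyl-CoA and assembled into palmitate, which is then elongated and desaturated before it is built into triglyceride. Insulin acts on the pathway largely through SREBP-1c and sugars through ChREBP. Hepatocytes differ along the axis from the portal vein to the central vein, with the pericentral side classically held to be the more lipogenic in fed animals.

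The zone difference of 4 genes, Fasn, Thrsp, Acaca and Elovl6, shifted towards the pericentral side in MASH. Their promoter windows, 250 bases before to 50 bases after the start (RefSeq, GRCm38.p6), are shown because their zone differences shifted in the same direction. Windows were found for 9 of the 10 genes, 13 in all; Scd1 had none. Capitals mark the NF-Y box (CCAAT on either strand), the E box (CACGTG) and the core of a sterol regulatory element (TCACNCCAC), where present. The Fasn window lies at chr11:120824498-120824797 on the minus strand. The Thrsp window lies at chr7:97417501-97417800, also on the minus strand. The Acaca window lies at chr11:84195188-84195487 on the plus strand, inside the annotated gene and downstream of its outermost start. The Elovl6 window lies at chr3:129532136-129532435 on the plus strand.
Fasn: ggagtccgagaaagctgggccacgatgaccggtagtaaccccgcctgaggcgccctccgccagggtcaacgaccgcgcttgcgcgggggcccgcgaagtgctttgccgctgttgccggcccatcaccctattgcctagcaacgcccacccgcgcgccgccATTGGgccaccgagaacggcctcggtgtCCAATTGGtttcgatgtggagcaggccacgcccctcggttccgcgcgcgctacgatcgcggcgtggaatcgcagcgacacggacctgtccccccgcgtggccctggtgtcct
Thrsp: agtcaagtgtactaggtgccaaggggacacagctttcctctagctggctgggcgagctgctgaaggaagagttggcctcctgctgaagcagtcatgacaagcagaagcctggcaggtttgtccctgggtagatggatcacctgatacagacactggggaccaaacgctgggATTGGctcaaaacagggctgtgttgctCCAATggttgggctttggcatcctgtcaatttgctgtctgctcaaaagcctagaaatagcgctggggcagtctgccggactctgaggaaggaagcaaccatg
Acaca: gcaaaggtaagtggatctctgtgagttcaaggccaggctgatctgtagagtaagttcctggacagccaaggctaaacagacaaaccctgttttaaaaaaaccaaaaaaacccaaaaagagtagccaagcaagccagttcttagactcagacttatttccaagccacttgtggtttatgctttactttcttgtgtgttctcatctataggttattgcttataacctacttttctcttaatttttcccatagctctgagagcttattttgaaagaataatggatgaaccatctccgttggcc
Elovl6: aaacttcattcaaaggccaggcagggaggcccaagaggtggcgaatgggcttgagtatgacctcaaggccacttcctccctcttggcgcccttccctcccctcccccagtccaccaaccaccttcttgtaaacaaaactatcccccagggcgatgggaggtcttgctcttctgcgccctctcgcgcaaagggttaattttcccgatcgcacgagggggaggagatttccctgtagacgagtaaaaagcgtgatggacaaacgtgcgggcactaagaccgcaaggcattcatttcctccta

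NF-Y binds the CCAAT box and is known to act beside SREBP at lipogenic promoters. The Fasn window held 3 such boxes, a pair of which overlap, and the Thrsp window held 2. No capitals stand in the Acaca and Elovl6 windows. Over the members, 8 of 13 windows from 7 genes held an NF-Y box, against 37.4% of all 32851 promoter windows of this length. The E box was found in 1 member window, at Mlxipl, and in 7.15% of all windows. The sterol core was likewise found only at the other start of Mlxipl, and in 1.24% of all windows. The Sp1 box (GGGCGG) was found in 6 of 13 member windows and in 35.7% of all. These matches describe letters in the windows and not occupied sites.

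Levels below are CPM, the UMIs of a gene relative to all UMIs of a zone sum, after TMM scaling, and differences are log2 folds from edgeR's quasi-likelihood test with Benjamini-Hochberg adjusted p-values, called at an adjusted p under 0.05. The zone by diet difference is the log2 pericentral over periportal fold in MASH minus that in chow. Of 14543 genes tested for it, 1.22% were called higher and 1.48% lower. Of the 10 lipogenesis genes, 4 were called higher and 0 lower, and their median difference was 0.41 beside -0.02 over all genes. In chow, 11.4% of genes were called higher in the pericentral zone and 10.2% lower, and of the 10 genes 2 were higher and 6 lower. In MASH, 2.15% of all genes were called higher and 2.08% lower, and of the 10 genes 2 were higher and 2 lower. For the diet within the pericentral zone, 8.63% of 13895 genes were called higher and 4.51% lower, and 1 of the 9 members tested was higher. Within the periportal zone, 8% of 13348 genes were called higher and 3.81% lower, and 1 of 9 members was higher and 1 lower. With 2 MASH libraries, none of the 4 zone by diet calls was made when either was left out (differences of 0.54 to 1.33, adjusted p of 0.066 to 0.39), nor were the 4 zone calls in MASH (adjusted p of 0.15 to 0.62).

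**Figure D1:**
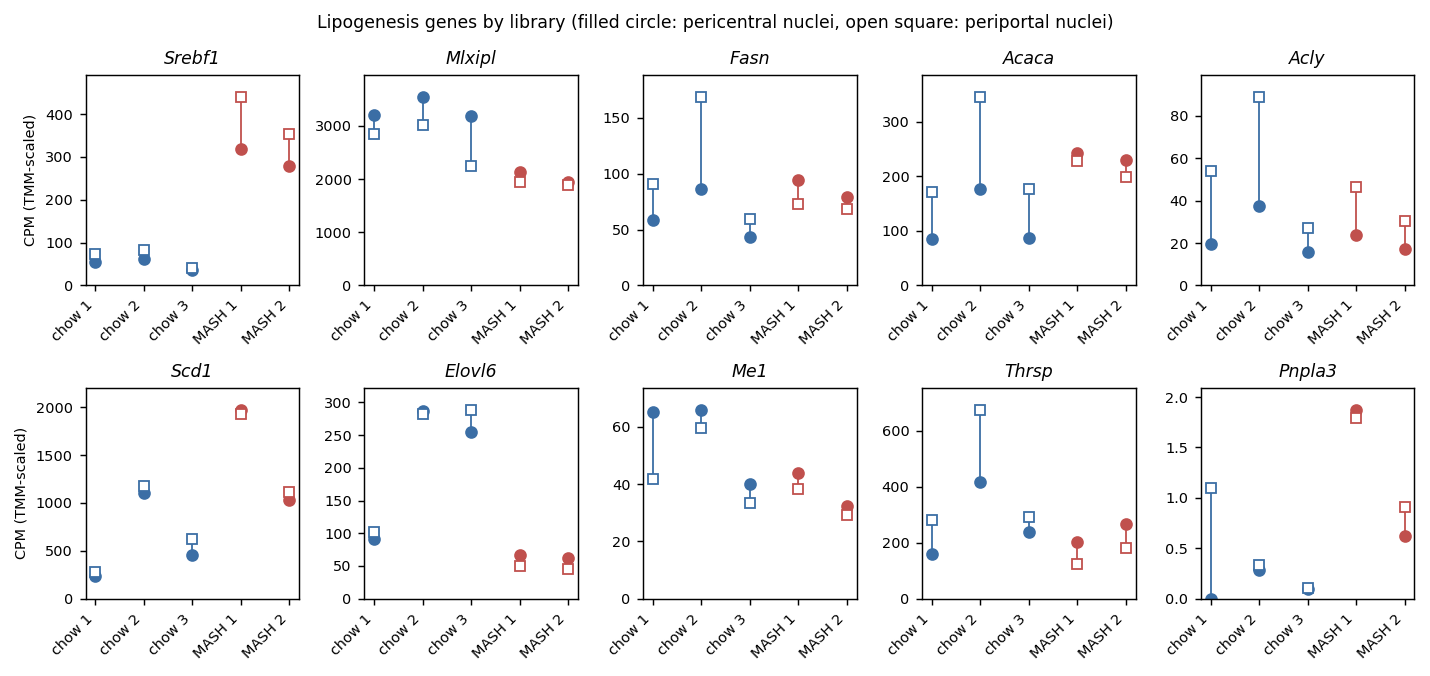
TMM-scaled CPM (vertical axis, from 0, its range set per panel) of the 10 genes in each of the 5 libraries (horizontal axis), with the pericentral zone as a filled circle and the periportal zone as an open square, chow in blue and MASH in red. The MASH libraries lie above all chow libraries for Srebf1 in both zones and below them for Elovl6, and the circles lie below the squares for Fasn, Acaca and Thrsp in chow and above them in MASH.

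Among the regulators, Srebf1 rose several-fold in MASH in both zones and kept a periportal bias in both diets. Srebf1 encodes SREBP-1, the transcription factor through which insulin acts on lipogenic genes, and lies at chr11:60199089-60222581 (GRCm38, as for all positions below, each of a protein-coding gene). In the pericentral zone its level was 54.8, 62.5 and 36.0 CPM in chow replicates 1 to 3, and 319 and 279 CPM in MASH replicates 1 and 2. In the periportal zone it was 73.7, 83.1 and 41.2 CPM in chow and 439 and 352 CPM in MASH. The lowest MASH value lay far above the highest chow value in either zone, and each library was higher on its periportal side. The diet difference was 2.56 (SE 0.29, adjusted p = 0.0045) in the pericentral zone and 2.58 (SE 0.35, adjusted p = 0.0094) in the periportal zone. The periportal call was not made without MASH replicate 1 (2.41, adjusted p = 0.086) or without MASH replicate 2 (2.73, adjusted p = 0.078). The pericentral fold over periportal was -0.35 in chow (SE 0.075, adjusted p = 0.0072) and -0.40 in MASH (SE 0.081, adjusted p = 0.021). The chow zone call was not made without chow replicate 2 (-0.31, adjusted p = 0.064). The zone by diet difference was -0.05, with a 95% interval of -0.29 to 0.20.

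Mlxipl, which encodes the carbohydrate-responsive factor ChREBP and lies at chr5:135089890-135138382, had no called diet difference. Its pericentral level was 3195, 3540 and 3190 CPM in chow and 2124 and 1949 CPM in MASH. On the periportal side it stood at 2852, 3011 and 2243 CPM in chow and 1951 and 1885 CPM in MASH. In each zone every chow library exceeded both MASH libraries on this scale. Before TMM scaling, periportal chow replicate 3 stood at 1680 CPM, below the MASH libraries at 2108 and 2218 CPM. The diet difference was -0.69 (SE 0.38, adjusted p = 0.25) in the pericentral and -0.50 (SE 0.37, adjusted p = 0.39) in the periportal zone. In chow Mlxipl was slightly higher on the pericentral side, by 0.30 (SE 0.081, adjusted p = 0.023), and in MASH the fold was 0.09 (adjusted p = 0.76). The difference of these folds was -0.22, with a 95% interval of -0.50 to 0.07. The chow zone call was not made without chow replicate 2 (adjusted p = 0.066) or chow replicate 3, where the fold was 0.19, nor without MASH replicate 1 (adjusted p = 0.083) or MASH replicate 2 (adjusted p = 0.069).

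Of the enzymes on the way from citrate to malonyl-CoA, Acly was periportal in both diets, while Acaca was periportal in chow alone among the calls. Acly encodes ATP citrate lyase, which splits cytosolic citrate, at chr11:100476353-100528000. On the pericentral side it stood at 19.4, 37.3 and 15.8 CPM in chow and 23.7 and 17.0 CPM in MASH, against 54.0, 88.9 and 27.0 CPM and 46.4 and 30.3 CPM on the periportal side. Every library was higher on the periportal side, and the diets overlapped in both zones. The zone fold was -1.19 in chow (SE 0.11, adjusted p = 4.5e-05) and -0.90 in MASH (SE 0.15, adjusted p = 0.0072). These differed by 0.29, with a 95% interval of -0.13 to 0.71 and an adjusted p of 0.50.

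Acaca encodes acetyl-CoA carboxylase 1, which commits acetyl-CoA to fatty acid synthesis, at chr11:84129672-84401651. Pericentral nuclei held 84.2, 178 and 86.9 CPM in chow and 243 and 231 CPM in MASH. Periportal nuclei held 171, 345 and 177 CPM in chow and 228 and 200 CPM in MASH. The pericentral groups did not overlap, whereas on the periportal side the MASH values lay within the chow range. In chow the periportal level was close to 2 times the pericentral level in each library, with a zone fold of -1.0 (SE 0.063, adjusted p = 3.1e-06). In MASH the fold was 0.15 (SE 0.076, adjusted p = 0.36). The zone by diet difference was 1.15 (SE 0.098, adjusted p = 0.00088). The diet difference itself was 1.04 (SE 0.36, adjusted p = 0.094) on the pericentral side and -0.11 (SE 0.37, adjusted p = 0.85) on the periportal side.

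Fatty acid synthase, encoded by Fasn at chr11:120805846-120824547, carries out the assembly of palmitate, and its zone difference also changed with diet. Pericentral levels were 58.7, 86.0 and 43.2 CPM in chow and 94.4 and 78.7 CPM in MASH. Periportal levels were 91.0, 169 and 59.3 CPM in chow and 73.3 and 68.5 CPM in MASH. The diets overlapped in both zones on this scale, but each chow library was higher on the periportal side and each MASH library on the pericentral side. Before TMM scaling, the pericentral levels did not overlap, at 64.6, 82.3 and 34.0 CPM in chow and 105 and 94.3 CPM in MASH. The zone fold was -0.70 in chow (SE 0.093, adjusted p = 0.00039) and 0.28 in MASH (SE 0.12, adjusted p = 0.26). The zone by diet difference was 0.98 (SE 0.15, adjusted p = 0.0093). No diet difference was called in either zone, at 0.48 (SE 0.31, adjusted p = 0.32) on the pericentral and -0.58 (SE 0.42, adjusted p = 0.37) on the periportal side.

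Thrsp encodes Spot 14, a small nuclear and cytosolic protein that promotes lipogenesis, at chr7:97412938-97417730, and its zone fold had opposite called signs in the diets. Its pericentral level was 159, 418 and 239 CPM in chow and 203 and 265 CPM in MASH. Its periportal level was 280, 672 and 293 CPM in chow and 124 and 179 CPM in MASH. On the periportal side both MASH libraries lay below every chow library, and on the pericentral side they lay within the chow range. The zone fold was -0.60 in chow (SE 0.093, adjusted p = 0.0011) and 0.63 in MASH (SE 0.12, adjusted p = 0.012). The zone by diet difference was 1.23 (SE 0.15, adjusted p = 0.0037). The diet difference on the periportal side was -1.45 (SE 0.47, adjusted p = 0.085). On the pericentral side it was -0.20 (SE 0.41, adjusted p = 0.77).

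**Figure D2:**
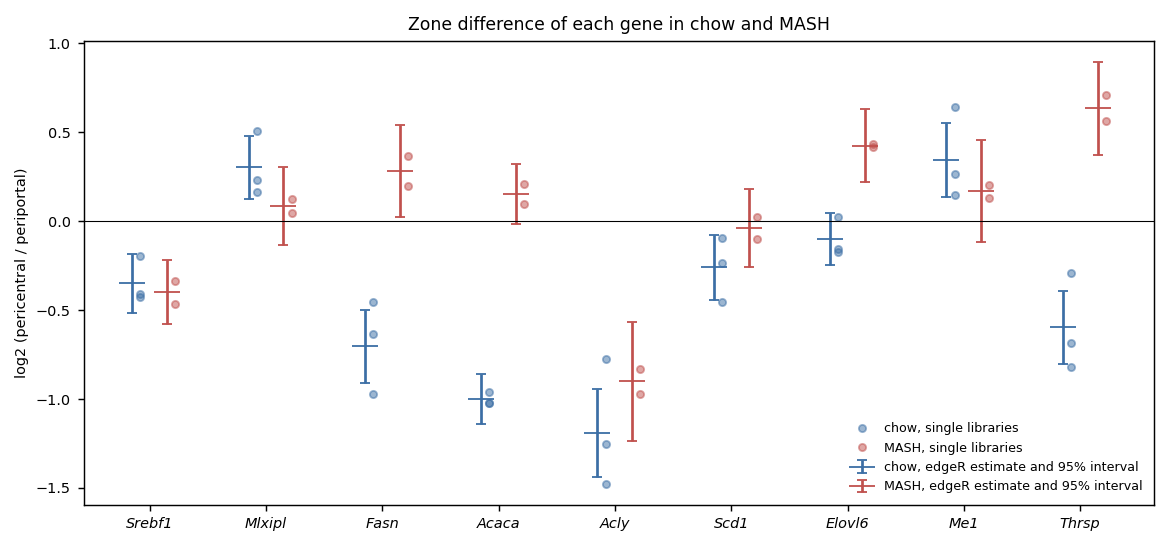
Log2 pericentral over periportal fold (vertical axis) of 9 genes (horizontal axis) in chow (blue) and MASH (red), with the edgeR estimate as a bar, its 95% interval as whiskers and single libraries as points; Pnpla3 is left out for its low counts. For Fasn, Acaca and Thrsp the chow points lie below 0 and the MASH points above it, while for Srebf1 and Acly both lie below 0.

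Elongation and desaturation follow. Elovl6, the elongase that extends palmitate to stearate, lies at chr3:129532355-129638495 and fell in the periportal zone in MASH. On the periportal side it stood at 102, 282 and 288 CPM in chow and 49.6 and 46.1 CPM in MASH. On the pericentral side it stood at 92.0, 287 and 255 CPM in chow and 66.2 and 62.2 CPM in MASH. Both MASH libraries lay below every chow library in each zone, and chow replicate 1 stood well below the other chow libraries. The diet difference was -2.23 (SE 0.49, adjusted p = 0.031) on the periportal side and -1.71 (SE 0.48, adjusted p = 0.055) on the pericentral side. The periportal call was not made without chow replicate 2 (-2.07, adjusted p = 0.076), nor without MASH replicate 1 (adjusted p = 0.23) or MASH replicate 2 (adjusted p = 0.25), nor with fixed cuts of the score (adjusted p = 0.050). The zone fold was -0.10 in chow (SE 0.065, adjusted p = 0.32) and 0.42 in MASH (SE 0.092, adjusted p = 0.028), and they differed by 0.52 (SE 0.11, adjusted p = 0.038). This was the smallest of the 4 differences and was not called in 4 of the 14 alternatives that hold both MASH libraries, where its adjusted p reached 0.11. The zone call in MASH was likewise not made in 4 of these 14, with an adjusted p up to 0.14.

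Scd1, the stearoyl-CoA desaturase that makes monounsaturated fatty acids, was spread widely among the chow libraries, where the highest pericentral level was 4.62 times the lowest. The gene lies at chr19:44394455-44407879. Pericentral nuclei held 240, 1108 and 452 CPM in chow and 1967 and 1034 CPM in MASH. Periportal nuclei held 282, 1181 and 621 CPM in chow and 1932 and 1110 CPM in MASH. Chow replicate 2 exceeded MASH replicate 2 in both zones, so the groups overlapped on this scale. Before TMM scaling the order of these libraries was reversed. Chow replicate 2 was then at 1060 CPM against 1239 CPM on the pericentral side, and at 1073 against 1306 CPM on the periportal side. The diet difference was 1.33 (SE 0.63, adjusted p = 0.18) on the pericentral and 1.13 (SE 0.58, adjusted p = 0.23) on the periportal side, with intervals of -0.12 to 2.79 and -0.24 to 2.49. The zone fold was small in both diets, at -0.26 in chow (SE 0.081, adjusted p = 0.044) and -0.04 in MASH (adjusted p = 0.90). The chow call was not made in 6 of the 16 alternatives, among them without chow replicate 3 (-0.17, adjusted p = 0.12), without MASH replicate 1 (adjusted p = 0.11), without MASH replicate 2 (adjusted p = 0.098) and with DESeq2 (adjusted p = 0.056).

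Me1 encodes cytosolic malic enzyme, a source of NADPH for fatty acid synthesis, at chr9:86581371-86695953. Pericentral levels were 65.1, 65.8 and 40.1 CPM in chow and 44.0 and 32.2 CPM in MASH, against 41.8, 59.5 and 33.4 CPM and 38.2 and 29.4 CPM on the periportal side. Each library was higher on the pericentral side, and the diets overlapped. The zone fold was 0.34 in chow (SE 0.094, adjusted p = 0.025) and 0.17 in MASH (adjusted p = 0.60). The chow call was not made in 5 of the 16 alternatives, among them without chow replicate 1 (0.20, adjusted p = 0.13), without MASH replicate 1 (adjusted p = 0.066), without MASH replicate 2 (adjusted p = 0.065) and with DESeq2 (adjusted p = 0.14). The diet differences were -0.57 (adjusted p = 0.22) and -0.41 (adjusted p = 0.38) in the pericentral and periportal zones.

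Pnpla3, a lipid droplet protein gene that SREBP-1c controls, was close to undetected. The pericentral sums held 0, 3 and 1 UMIs in the chow libraries and 13 and 7 in the MASH libraries. The periportal sums held 8, 3 and 1 and 10 and 6 UMIs. Its gene lies at chr15:84167837-84187236. It did not reach the count filter of the diet fits, and its zone by diet difference of 1.62 had a 95% interval of -0.81 to 4.06. Its diet difference in counts was thus not tested in either zone. At this depth, no zone fold and no zone by diet difference was called for it.

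**Figure D3:**
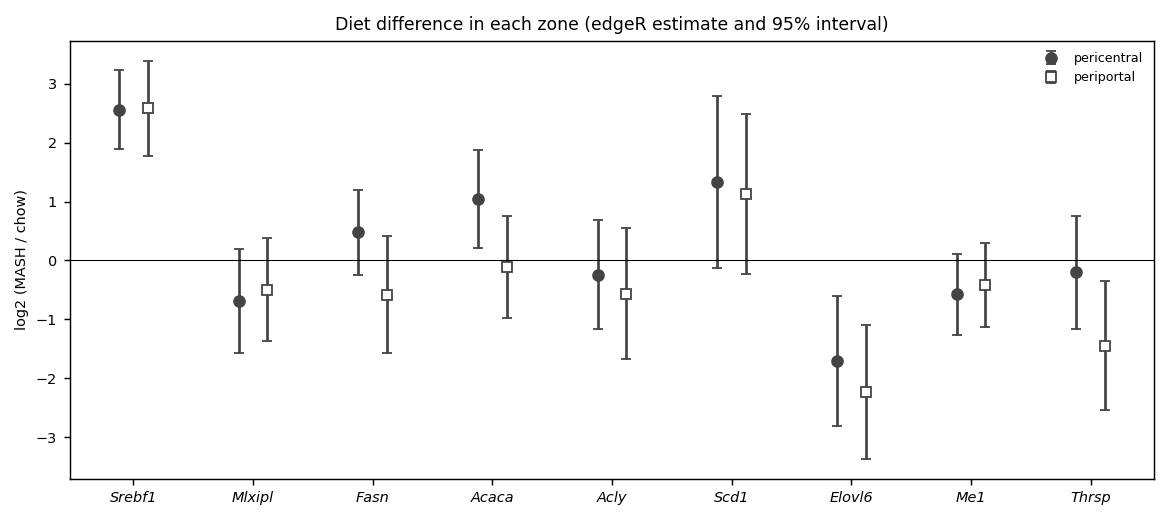
Log2 MASH over chow difference (vertical axis) of 9 genes (horizontal axis) in the pericentral zone (filled circles) and the periportal zone (open squares), with 95% intervals from edgeR. Srebf1 lies between 2.5 and 2.6 in both zones and Elovl6 below 0 in both, while Fasn, Acaca and Thrsp have a higher estimate on the pericentral than on the periportal side.

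The course along the score was followed in 5 equal groups of nuclei per library, from the most periportal to the most pericentral, in nuclei with at least 1 score marker UMI. These values are plain CPM. Acaca fell from 193 to 84.1, from 316 to 153 and from 134 to 60.6 CPM between the end groups of chow replicates 1 to 3. In MASH its end groups were at 247 and 270 CPM in replicate 1 and at 234 and 270 CPM in replicate 2. Thrsp went from 149 to 262 and from 214 to 418 CPM in the MASH libraries, against 290 to 183, 623 to 360 and 237 to 168 CPM in chow. Elovl6 in MASH was highest in the most pericentral group, at 85.7 and 93.0 CPM, with 55.8 and 54.5 CPM in the most periportal one. Fasn behaved alike in MASH, with 92.2 against 130 CPM and 77.1 against 106 CPM in the most periportal and most pericentral groups. These values come from the same nuclei as the tests above and describe the shape of the differences.

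**Figure D4:**
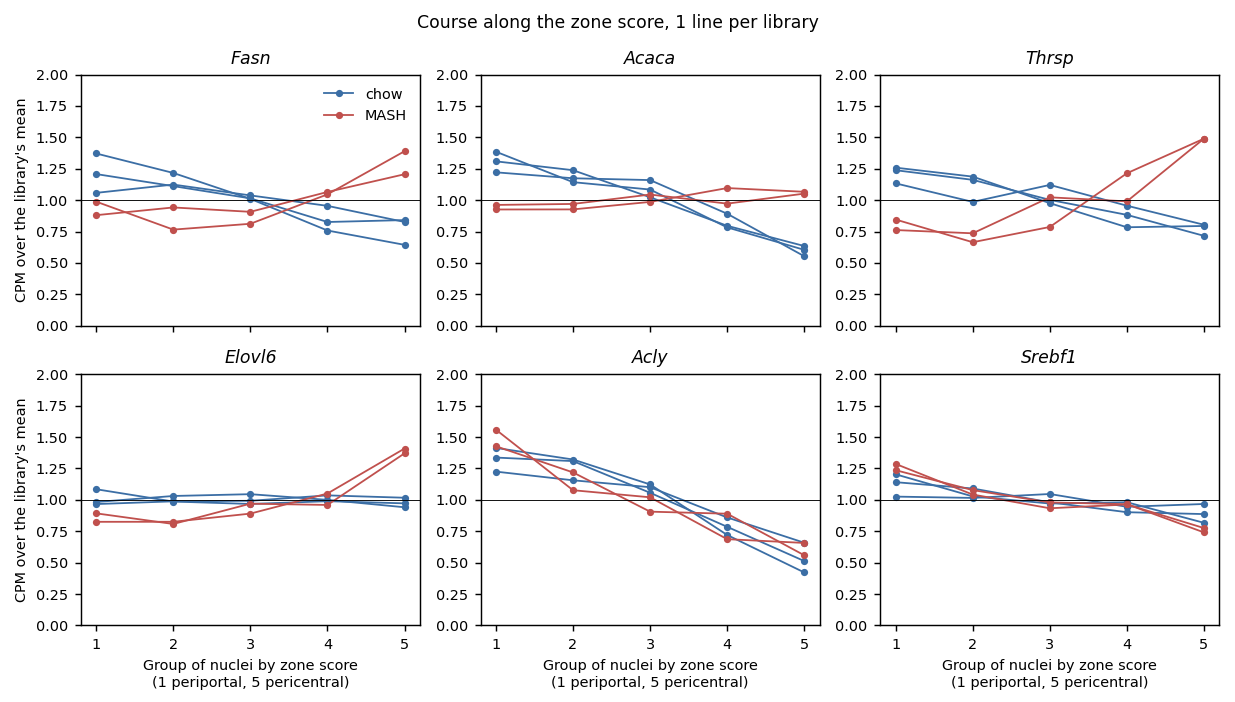
CPM divided by the mean of the library's 5 groups (vertical axis) along 5 groups of nuclei ordered by the zone score (horizontal axis, 1 periportal to 5 pericentral), with 1 line per library, chow in blue and MASH in red. In the most pericentral group the chow lines of Fasn, Acaca and Thrsp lie below 1 and the MASH lines of these genes and Elovl6 above it, while the lines of Acly and Srebf1 lie below 1 in all 5 libraries.

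The share of nuclei with at least 1 UMI, after each nucleus was thinned to 2000 UMIs, was compared over libraries by a two-sided exact permutation test, which cannot go below p = 0.1 with 3 against 2 libraries. Srebf1 was found in 9.04% ± 3.31 (SD, n = 3) of the chow pericentral nuclei and in 46.9% ± 1.20 (SD, n = 2) of those from MASH livers (exact p = 0.1). The periportal shares were 11.01% ± 4.35 and 53.8% ± 5.77 (exact p = 0.1). Without thinning they were 21.3% and 74.7% on the pericentral side. In endothelial nuclei, which are not the main site of lipogenesis, Srebf1 was found in 3.03% to 8.88% in chow and in 23.7% and 29.0% in MASH, at median depths of 985 to 1306 UMIs and unthinned. Acaca was found in 18.1% ± 8.32 and 39.0% ± 2.45 of pericentral nuclei (exact p = 0.2) and in 30.4% ± 10.1 and 36.2% ± 1.95 of periportal nuclei (exact p = 0.5). The same endothelial nuclei, unthinned, held it in 4.80% to 14.8% in chow and in 15.7% and 19.6% in MASH. In cholangiocyte nuclei, unthinned at median depths of 1579 to 3549 UMIs, the shares were 42.4%, 51.9% and 43.3% in chow and 39.1% and 20.5% in MASH. Depth differed between these nuclei and the thinned hepatocyte nuclei, so their shares are not directly comparable. None of the 20 comparisons of a share could reach significance in this design.

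The members were also counted in nuclei of other cell types, taken as barcodes without Hnf4a UMIs that carried markers of endothelial cells, macrophages, stellate cells, cholangiocytes or lymphocytes. The hepatocyte level divided by the level in these nuclei together, in plain CPM, was 1.99 to 2.51 for Mlxipl, 1.62 to 2.55 for Thrsp, 1.42 to 1.80 for Acaca, 1.23 to 1.97 for Elovl6 and 1.24 to 1.73 for Fasn over the 5 libraries. For Srebf1 it was 1.17 to 1.24 in chow and 1.71 and 1.76 in MASH. It was 0.62 to 1.0 for Acly, 0.70 to 1.20 for Me1 and 0.34 to 0.59 for Scd1, so hepatocyte nuclei did not stand above other nuclei for these genes in all libraries. Single types could also lie above them for other members. In chow, 59, 27 and 97 cholangiocyte nuclei held Acaca at 187, 310 and 139 CPM, against hepatocyte levels of 133, 238 and 105 CPM. In MASH they lay below, at 202 and 154 against 261 and 259 CPM. For Thrsp and Fasn, cholangiocyte nuclei were above hepatocyte nuclei in chow replicates 1 and 3 only. Srebf1 also differed between the diets in the other nuclei, at 56.0, 56.8 and 24.0 CPM in chow and 235 and 207 CPM in MASH. Scd1 there was at 717, 3112 and 825 CPM in chow and 5177 and 2158 CPM in MASH, with chow replicate 2 high as in hepatocyte nuclei. The part of free RNA in the levels and in the diet differences was not tested.

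Stellate, lymphocyte and macrophage markers in the gated nuclei were higher in every MASH zone sum than in every chow one, whereas the diets overlapped for cholangiocyte and endothelial markers. Cholangiocyte markers were higher on the periportal side in each library. The summed level of 5 stellate markers was 41.3 to 63.7 CPM over the chow zone sums and 131 to 203 CPM in MASH. The 5 lymphocyte markers were at 7.10 to 25.0 CPM in chow and 49.7 to 89.6 CPM in MASH. The 5 macrophage markers were at 23.5 to 32.5 CPM and 49.0 to 150 CPM. The 5 cholangiocyte markers were at 17.1 to 83.8 CPM and 62.0 to 140 CPM, and the 5 endothelial markers at 43.6 to 151 CPM and 97.5 to 143 CPM. At 0 in at least 1 zone sum were Krt19, Krt7, Epcam, Cd3e, Cd79a and Skap1 in chow and Marco in MASH replicate 2. When nuclei with 2 or more such UMIs were left out, 3 of the 4 zone by diet calls were made, and Elovl6 had a difference of 0.62 (adjusted p = 0.055). Their part in the diet differences was otherwise not tested.

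The neighbouring steps of the pathway were read from 4 lists, and genes called among them are named by the size of their fold. Counts per list stand beside the shares over all genes. These were 1.22% higher and 1.48% lower for the zone by diet difference. For the pericentral side in chow they were 11.4% higher and 10.2% lower. Of 11 genes for sugar, acetyl-CoA and NADPH supply, 3 were higher and 1 lower in the zone by diet difference, with a median of 0.15. Pklr, the liver pyruvate kinase gene, differed by 1.46 (SE 0.17, adjusted p = 0.0032), Tkfc, the triokinase of fructose breakdown, by 1.21 (SE 0.12, adjusted p = 0.0016), and Khk, ketohexokinase, by 0.65 (SE 0.12, adjusted p = 0.020). Acss3, a mitochondrial acyl-CoA synthetase gene, went the other way at -1.002 (SE 0.12, adjusted p = 0.0032). None of these 4 was called without MASH replicate 1 or without MASH replicate 2 (adjusted p of 0.072 to 0.30), nor Khk without chow replicate 2 (adjusted p = 0.054). In chow, 4 of the 11 were lower on the pericentral side and 2 higher, with Pklr at -1.30, Tkfc at -1.21, Khk at -0.60 and Acss3 at 1.29. In MASH 0 of the 11 were called by edgeR, and 2, Pdha1 and Acss3, had an unadjusted p under 0.05 (0.010 and 0.0074). For the diet, Slc2a2, the hepatocyte glucose transporter, was higher on the pericentral side (1.63, adjusted p = 0.043) and Tkfc lower on the periportal side (-1.71, adjusted p = 0.034). The Slc2a2 call was not made in 5 of 16 alternatives, among them without chow replicate 1 (adjusted p = 0.051), chow replicate 2 (0.061), MASH replicate 1 (0.19) or MASH replicate 2 (0.21). The Tkfc call was not made in 4 of 16, among them without chow replicate 2 (adjusted p = 0.067), MASH replicate 1 (0.24) or MASH replicate 2 (0.30).

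Of 15 regulators, Mid1ip1 was the 1 called in the zone by diet difference. Mid1ip1 is the paralogue of Thrsp and binds acetyl-CoA carboxylase. Its pericentral level was 14.2 ± 2.27 CPM (SD, n = 3) in chow and 18.3 ± 0.70 CPM (SD, n = 2) in MASH, and its periportal level was 32.4 ± 8.24 and 19.0 ± 4.27 CPM. Its zone by diet difference was 1.15 (SE 0.18, adjusted p = 0.010), beside a zone fold of -1.18 in chow, and was not called without MASH replicate 1 (adjusted p = 0.15) or MASH replicate 2 (0.23). In chow 4 regulators were lower on the pericentral side and 1 higher, among them Ppargc1b at -0.55, Usf1 at -0.34 and Insig1 at -0.27; in MASH Usf2 was lower at -0.34. Of 16 alternatives, Ppargc1b was not called in 4, among them without chow replicate 1 (adjusted p = 0.25), Usf1 in 7, with DESeq2 the highest (0.22), Insig1 in 5, among them without chow replicate 1 (0.13), and Usf2 in 6, among them without chow replicate 2 (0.078). Leaving out either MASH library lost each of these 4 calls. Irs2, an insulin receptor substrate, was lower in MASH on the periportal side (-2.40, SE 0.57, adjusted p = 0.039), and none of the 15 passed on the pericentral side. The Irs2 call was not made in 5 of 16 alternatives, among them without chow replicate 2 (adjusted p = 0.052), MASH replicate 1 (0.24) or MASH replicate 2 (0.27).

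Of 11 further genes of fatty acid activation, elongation and desaturation in the study's lipogenesis set, Elovl2 was the 1 called in the zone by diet difference, at 0.78 (SE 0.14, adjusted p = 0.017), but not without MASH replicate 1 (adjusted p = 0.24) or MASH replicate 2 (0.30). Elovl2 elongates polyunsaturated fatty acids and in chow was lower on the pericentral side by -0.76, as were Acsl3 (-0.62) and Fads1 (-0.39), while Hacd3 was higher (0.48). Fads1 was not called without chow replicate 2 (adjusted p = 0.065). In MASH Fads6 was lower on the pericentral side (-0.35) and Hacd2 higher (0.45). Fads6 was not called in 5 and Hacd2 in 7 of 16 alternatives, both of them without chow replicate 2 (adjusted p = 0.062 and 0.071) and without either MASH library (up to 0.48 and 0.64). Elovl5 was higher in MASH on the pericentral side (1.17, SE 0.23, adjusted p = 0.021), and none of the 11 was called on the periportal side. The Elovl5 call was made in 13 of the 14 alternatives that hold both MASH libraries, where its adjusted p reached 0.058. It was not made without MASH replicate 1 or without MASH replicate 2.

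Of 9 genes of triglyceride assembly and its desaturase supply, 0 were called in the zone by diet difference by edgeR, which called 393 of all genes and gave an unadjusted p under 0.05 for 2377. Scd2, a desaturase found mainly outside hepatocytes, was higher in MASH by 3.14 (SE 0.46, adjusted p = 0.0091) on the pericentral and by 3.24 (SE 0.41, adjusted p = 0.0075) on the periportal side, from 0.96 to 8.5 CPM and from 1.08 to 10.3 CPM. Neither call was made without MASH replicate 1 (adjusted p = 0.050 and 0.075) or MASH replicate 2 (0.11 in both). Gpam, the first acyltransferase of the pathway, was higher on the pericentral side (1.18, SE 0.31, adjusted p = 0.046), but was not called in 9 of 16 alternatives, among them without chow replicate 2 (adjusted p = 0.11), chow replicate 3 (0.068) or either MASH library (0.25 in both). Lpin2, a phosphatidate phosphatase gene, was higher on the pericentral side of both diets, by 0.65 in chow and 0.54 in MASH, and Lpin1 was lower there in chow by -0.32. Lpin2 in MASH was not called without MASH replicate 1 (adjusted p = 0.42) or MASH replicate 2 (0.15), and Lpin1 in chow not without chow replicate 1 (0.073), chow replicate 2 (0.075), MASH replicate 1 (0.077) or MASH replicate 2 (0.057).

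Over the 10 zone sums, which share libraries in pairs, the log2 level of Fasn was most like that of Ctsz (Pearson's r = 0.94), Gpi1 (0.92), Pklr (0.92), Vps13a (0.90) and Rsf1 (0.90). The level of Scd1 was most like that of Actb (0.98), Smad2 (0.98), Ankrd11 (0.98), Spag9 (0.97) and Vps36 (0.97). These coefficients describe a shared pattern over 5 libraries and carry no test.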

How the data were processed

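Single-nucleus 3' libraries were made by the authors from sorted nuclei of frozen liver, and the authors deposited unnormalised UMI counts, by gene and barcode, from Cell Ranger 8.0.1 (GRCm38), with intronic reads left out; antisense and overlapping genes, such as Rai1 at Srebf1, were not resolved further. Total counts per library were 35612373 to 49137377 UMIs. The matrices hold no cell types or doublet calls, and no doublets were removed; nuclei with 2 or more UMIs of other types were left out as an alternative. Counting error alone limits sums under 3 UMIs.

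For the zone score, the log of 1 plus the UMIs per 10000 was taken for each marker and standardised over the gated nuclei of its library. The mean of the 3 periportal markers was then subtracted from that of the 3 pericentral ones, so the zones are relative to each library. The fixed cuts used this score without the standardisation. Zone sums were tested with edgeR 4.0.16 (R 4.3.3): TMM scaling, its default filter on low counts, quasi-likelihood fits with library as a block for the zone terms over 10 sums, and separate fits of 5 sums for diet in each zone. Standard errors were taken from the F statistic and intervals from its degrees of freedom. Simulated data with known changes were used to test the scripts. Thinning used seed 1, in Python 3.11.15 with numpy 2.4.6, pandas 2.3.3 and scipy 1.17.1.

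Alternatives were RLE factors, DESeq2 1.42.0, no count filter, Storey q-values, each library left out, a replicate block, 2 parts instead of 3, fixed cuts of the score, a minimum of 1000 UMIs, mitochondrial share under 10%, and fewer than 2 UMIs of other types. A split into 3 parts among nuclei with a score marker UMI was added after seeing the data. The members, lists and tests were chosen with earlier results of these data known. All 10 members were named, and from each list at most the 4 called genes with the largest fold per comparison; 2 genes of the supply list are not reported here. Positions came from GENCODE M21 and promoters from RefSeq, both GRCm38.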

Additional observations from a re-analysis of the deposited data

Results flagged for a closer look

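The pericentral over periportal fold differed between chow and MASH by the zone by diet term of edgeR for 4 lipogenesis genes. The differences, MASH minus chow on the log2 scale, were 0.984 for Fasn, 1.153 for Acaca, 0.5239 for Elovl6 and 1.231 for Thrsp. Each of the 2 MASH libraries had a higher fold than each of the 3 chow libraries for these genes. The genes were picked by this term from the same libraries, so the separation describes the calls and is no further support for them. The same term singled out Elovl2 (0.7828), Mid1ip1 (1.152), Pklr (1.461), Khk (0.6543) and Tkfc (1.213), and with the opposite sign Acss3 (-1.002). None of these 6, nor of the 4 lipogenesis genes, was called when either MASH library was left out, with adjusted p of 0.072 to 0.30 for the 6. Groups of 3 and 2 libraries are too small for a check of single outlying libraries.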

How the results depend on the processing

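The zone by diet differences of Fasn, Acaca and Thrsp kept their sign and were called in 14 of 14 alternatives that hold both MASH libraries, with adjusted p up to 0.016, 0.0033 and 0.010; Elovl6 was called in 10 of 14, with adjusted p up to 0.11. Without MASH replicate 1 or 2, Fasn stood at 0.90 and 1.08, Acaca at 1.21 and 1.11, Elovl6 at 0.54 in both and Thrsp at 1.17 and 1.33, with none called. A lone MASH library is then assumed to vary like chow. Srebf1 in the pericentral zone was called in 14 of 14.

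Genes called in the zone by diet difference numbered 393, with 1031 under no filter, 206 without nuclei holding 2 UMIs of other types, and 1 to 813 when a library was left out; members called were 4, and 0 to 4 with a library left out. For the diet in pericentral nuclei, 1826 genes became 2858 with DESeq2, 3022 without the filter, 3543 with Storey q-values, 1183 without nuclei holding 2 UMIs of other types and 139 to 2531 with a library left out; the 1 member called became 3, 4 and 3 in the first 3 of these and 1 to 2 with a library left out. In periportal nuclei, 1576 genes became 2536, 2866 and 3463 in the same order, 601 with fixed cuts, 818 without nuclei holding 2 UMIs of other types and 24 to 2762 with a library left out; 2 members became 1 with fixed cuts and 0 to 3 with a library left out. DESeq2 moved the share of higher calls from 65.7% to 53.6% in pericentral and from 67.8% to 54.6% in periportal nuclei. For zones in chow, 3139 genes became 1860 with DESeq2 and 2207 to 2764 with a library left out, and 8 members became 5 to 7. In MASH, 615 genes became 1139 without the filter, 334 without nuclei holding 2 UMIs of other types and 25 to 1082 with a library left out, and 4 members became 0 to 4. More genes were tested without a filter, and leaving out a library left fewer samples, but the cause of these changes was not tested.

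In the labels, same-numbered libraries share only a number, and whether they were handled together is not given. Their deviations from the diet means correlated at -0.06 and -0.16 in pericentral and -0.07 and -0.14 in periportal sums. With 2 MASH libraries, the deviations of one mirror those of the other, so these coefficients cannot show whether libraries were paired. The replicate block brought pericentral diet calls to 1204 genes, lost Elovl6 in the zone by diet difference (0.48, adjusted p = 0.074), gained Thrsp for the diet in periportal nuclei (-1.53, adjusted p = 0.016), lost Srebf1 (-0.32, adjusted p = 0.093) and Elovl6 (0.38, adjusted p = 0.088) and gained Fasn (0.40, adjusted p = 0.030) for the zones in MASH. Signs turned only for values that were not called: Srebf1 in the zone by diet difference (0.046 without chow replicate 3, 0.020 without MASH replicate 1, -0.10 to 0.046 over all libraries left out, 0.021 with the replicate block); diet in pericentral nuclei for Acly (0.18 without chow replicate 2, range -0.51 to 0.18) and Thrsp (0.21 without chow replicate 2, range -0.48 to 0.21, 0.00827 without nuclei holding 2 UMIs of other types); diet in periportal nuclei for Acaca (0.25 and 0.055 under these settings, range -0.30 to 0.25); and zones in MASH for Scd1 (0.039 without MASH replicate 2, range -0.098 to 0.039, 0.034 with fixed cuts, 0.0016 among nuclei with a score marker UMI), Pnpla3 (0.072 without MASH replicate 2, range -0.55 to 0.072, 0.54 with the block) and Me1 (-0.029 without nuclei holding 2 UMIs of other types). Thinning moved 7 of the 20 share differences by more than 1 SD, with 0 called either way.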
